A study of Homo sapiens with 12 samples.

Results

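LIN28B, HMGA1, HMGA2, IGF2BP1, IGF2BP2, IGF2BP3, ARID3A, BCL11A and ZBTB7A were chosen by name as genes of the fetal programme of blood cells and regulators of fetal globin. Their members in the data were all listed H2A.Z and acetylated H2A.Z (H2A.Zac) regions that overlapped the gene or the 10 kb to each side of it, 149 of 158028 regions in all. Chromatin immunoprecipitation sequencing was carried out in K562, a human chronic myeloid leukemia line with erythroid features, in which a degradation tag on the endogenous EP400 allowed its removal. Each of 2 lines, 1 clone each, carried a transgene at the AAVS1 locus, either WT EP400 or EP400 without the SANT and HD domains that hold the TRRAP module (ΔTRRAP), and both were treated with 500 nM dTAGV-1 for 24 h. The 12 libraries were 2 replicates each of H2A.Z, H2A.Zac and input for the WT line and for the ΔTRRAP line. A region was listed as gained where the mark was higher in ΔTRRAP than in WT, as lost where it was higher in WT, and as unchanged otherwise. Its only value was a log10 likelihood ratio, at least 3 in gained and lost regions, which grows with read depth and with the difference and is not a fold change. The lists came from merged replicates, so no spread between replicates or test can be given, and every count describes 1 comparison.

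LIN28B binds the precursors of the let-7 microRNAs and blocks their maturation, and the mRNAs of HMGA2, IGF2BP1, IGF2BP2, IGF2BP3 and ARID3A are known let-7 targets, and these genes are active together in fetal blood cells. BCL11A and ZBTB7A act at the other end, as zinc finger repressors that silence the fetal gamma-globin genes in adult erythroid cells. K562 cells are known to express embryonic and fetal globin. H2A.Z is a histone variant placed at promoters and enhancers by EP400, and its acetylation by TIP60 in the same complex is a mark of active elements.

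Over these genes the changed regions were mostly gained. Of 28 changed H2A.Z regions 24 were gained, a share of 85.7% (Wilson 95% confidence interval, 68.5 to 94.3%, counting error only), beside 41.6% of the changed H2A.Z regions of the whole lists. For H2A.Zac 35 of 44 changed regions were gained, 79.5% (65.5 to 88.8%), beside 50.4% in the whole lists. Neighbouring regions can be parts of 1 peak, so these intervals are too narrow. The genes were also chosen with earlier results of these data known, so the shares beside the whole lists are description only. With 50 kb in place of 10 kb to each side, the H2A.Z share fell to 62.8%. Another 36 H2A.Z and 41 H2A.Zac regions were unchanged. Classes of 1 mark often overlapped, so that 17 of the 24 gained H2A.Z regions and 22 of the 35 gained H2A.Zac regions shared bases with a region of another class. Among all listed H2A.Z regions 14.1% were gained and 19.8% were lost, and for H2A.Zac these shares were 26.3 and 25.9%. In base pairs, gained H2A.Z regions covered 18557 bp against 2503 bp of lost ones, and gained H2A.Zac regions 49545 bp against 7934 bp. The median gained region was 653.5 bp wide in H2A.Z (449 bp in the whole lists) and 1021 bp wide in H2A.Zac (664 bp).

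A gained region of each mark was found at 8 of the 9 genes, all but HMGA2. Gained H2A.Z regions lay over 26.6% and gained H2A.Zac regions over 59.4% of all 20033 protein-coding loci of the same definition. Lost H2A.Z regions were listed at 3 genes, IGF2BP1, ZBTB7A and ARID3A, beside 27.3% of all protein-coding loci. Lost H2A.Zac regions were listed at 4 genes, LIN28B, HMGA1, ZBTB7A and ARID3A, beside 49.8% of all loci. The background counts are not matched for gene length, and the median length was 103.9 kb for these genes and 27.5 kb for protein-coding genes. HMGA2 alone among the 9 had no changed region of either mark, which was also the case at 21.5% of all protein-coding loci. At least 4 changed H2A.Zac regions were present at 6 of the 9 genes, and at 2 of those, IGF2BP2 and IGF2BP3, all of them were gained. Among the 4863 protein-coding loci with at least 4 changed H2A.Zac regions, 13.4% had gained ones only.

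**Figure D1:**
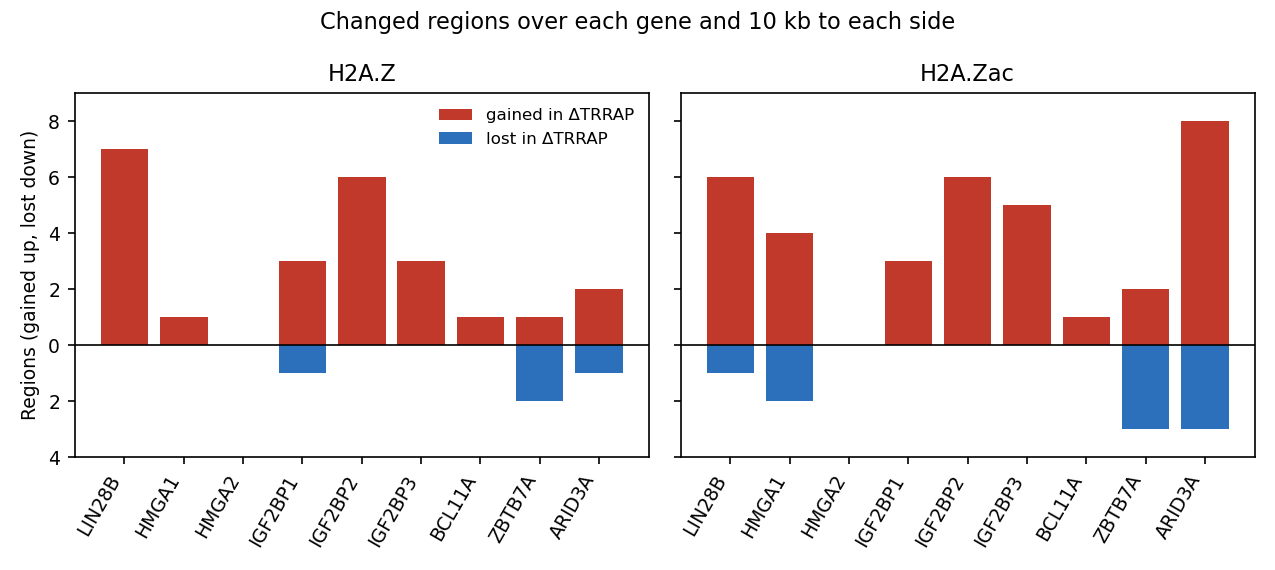
Number of gained regions (up) and lost regions (down) of H2A.Z (left) and H2A.Zac (right) over each gene and 10 kb to each side. Gained regions outnumbered lost ones at all genes with changed regions except ZBTB7A, which had 1 gained and 2 lost H2A.Z regions and 2 gained and 3 lost H2A.Zac regions.

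Near the transcription start sites (TSSs) of these genes the changed regions were gained, with 1 exception, but gained regions were not limited to them: 10 of 24 gained H2A.Z regions and 21 of 35 gained H2A.Zac regions lay further than 1 kb away. Within 1 kb of a TSS of the gene itself, the H2A.Z lists held 14 gained, 0 lost and 18 unchanged regions, and the H2A.Zac lists 14 gained, 1 lost and 13 unchanged. In the whole lists, the gained share of changed regions within 1 kb of any TSS was 57.1% for H2A.Z and 62.3% for H2A.Zac. Within 1 kb of a TSS of a protein-coding gene these shares were 62.1 and 65.5%. Counted by gene, 7 of 9 had a gained H2A.Z region there, beside 16.2% of protein-coding genes, and the 7 genes were those with a gained H2A.Zac region there, beside 41.4%. Both marks were gained near a TSS at 13.3% of protein-coding genes. These shares count protein-coding genes with or without a listed region near a TSS, and 8 of the 9 had a listed H2A.Z region there. They are not matched for the number of annotated TSSs of a gene. A changed H2A.Z region near a TSS was left at 4 genes with a ratio of at least 5 or a width of at least 500 bp. With a ratio of at least 10 it was left at 0 genes. The 7 genes were LIN28B, HMGA1, IGF2BP1, IGF2BP2, IGF2BP3, ZBTB7A and ARID3A. They were also the only ones of the 9 with any H2A.Zac region listed so close to a TSS, and of the 13851 protein-coding genes with one, 59.9% had a gained one. A lost H2A.Z region within 1 kb of a TSS was found at none of the 9 genes, beside 9.31% of protein-coding genes. A lost H2A.Zac region was found there at 1 gene, LIN28B, beside 22.3%.

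Further than 1 kb from a TSS but inside the canonical transcript, 5 H2A.Z and 14 H2A.Zac regions were gained and 0 of either mark were lost. Gained regions of LIN28B upstream of its canonical TSS, though within a longer annotated transcript, are not in these counts. Over all protein-coding genes the gained share of changed regions in gene bodies, further than 1 kb from a TSS, was 42.0% for H2A.Z and 51.4% for H2A.Zac. All 13 lost regions of both marks lay outside the canonical transcripts, 11 of them upstream and 2 downstream, although the one at LIN28B was within a longer annotated transcript. Some regions, in the flanks, inside the gene or over its own TSS, were within 1 kb of the TSS of another gene. This was so for 4 gained and 1 lost H2A.Z regions and for 9 gained and 3 lost H2A.Zac regions, and without these, 20 H2A.Z regions were gained and 3 lost and 26 H2A.Zac regions were gained and 6 lost.

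**Figure D2:**
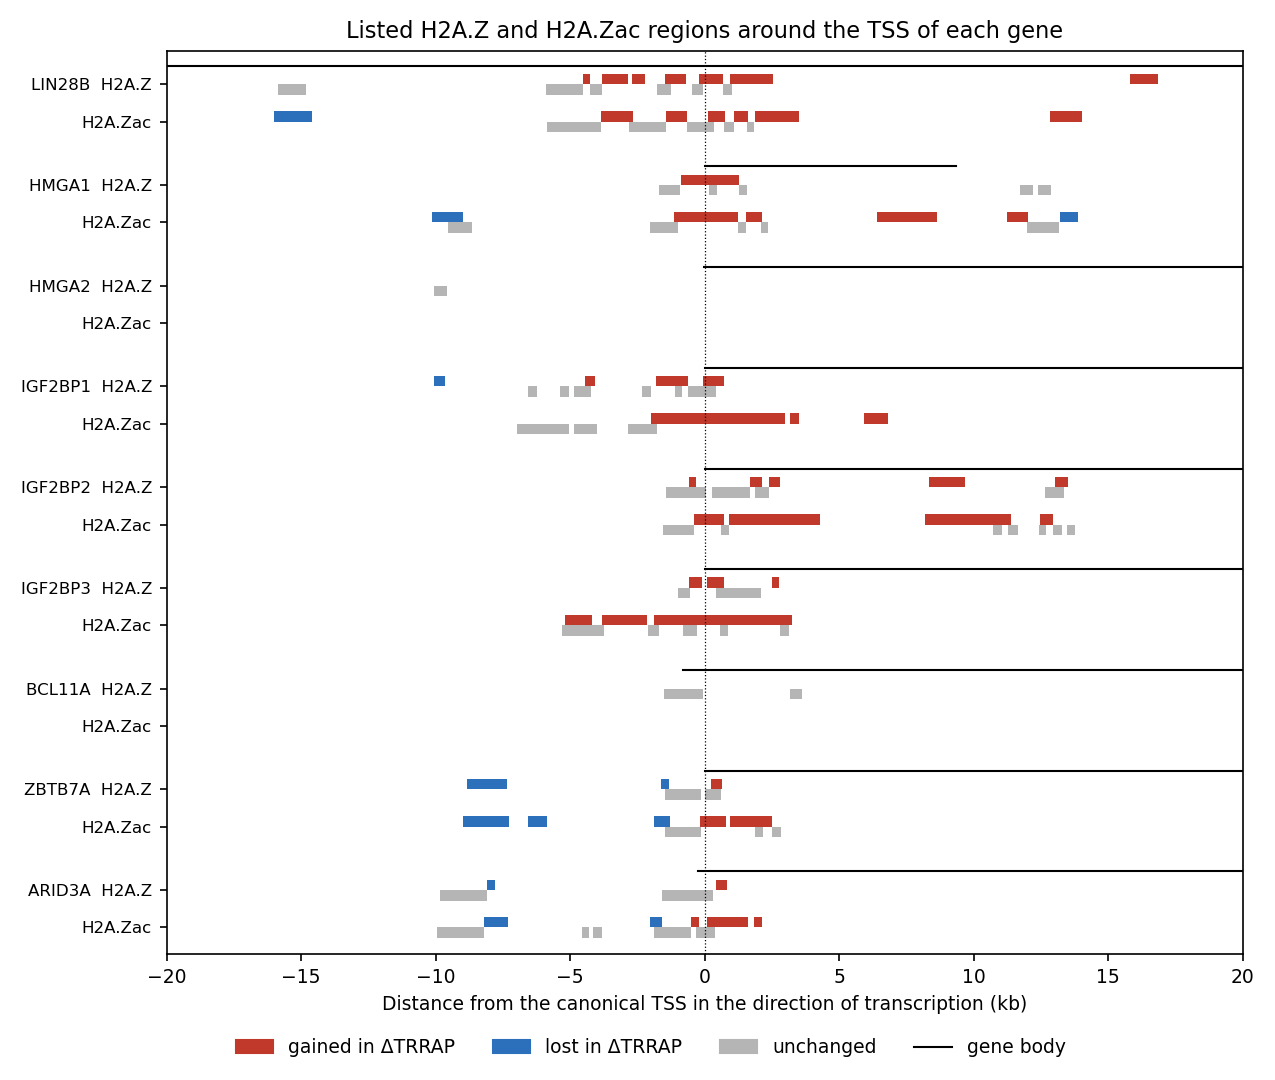
Listed regions within 20 kb of the canonical TSS of each gene, drawn to scale in the direction of transcription (kb), with gained and lost regions in the upper row of each track, unchanged ones in the lower row and the annotated gene body as a line above. Of 149 regions 121 are drawn, and gained regions sit over or beside the TSS of LIN28B, HMGA1, IGF2BP1, IGF2BP2, IGF2BP3, ZBTB7A and ARID3A, while the lost regions lie more than 1 kb from it.

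LIN28B (ENSG00000187772, chr6:104936616-105083332, plus strand, hg38) had the most changed H2A.Z regions. Its 7 gained H2A.Z regions had likelihood ratios of 4.25 to 7.58. Of these, 5 lay from 4.25 kb upstream to the TSS of the canonical transcript and over it, 1 covered 1602 bp from 925 bp inside the gene, and 1 lay in intron 2, 15.8 kb from the TSS. The region over the TSS itself spanned 881 bp at chr6:104956906-104957786 with a ratio of 6.81. Thus a run of gained H2A.Z regions surrounded this promoter, and 4 of the 7 overlapped an unchanged H2A.Z region. H2A.Zac followed the same outline, with 6 gained regions at ratios of 4.72 to 9.25. The highest of them spanned 1189 bp, 2.65 kb upstream, and 85.8% of its length was covered by gained H2A.Z regions. The H2A.Zac region over the canonical TSS, 997 bp wide, was unchanged with a ratio of 0.976. The single lost region, of H2A.Zac with a ratio of 8.10, lay 14.6 kb upstream at chr6:104941092-104942522, close to a far alternative TSS of LIN28B and to the TSSs of LIN28B-AS1 and ENSG00000290011. The H2A.Z region there was unchanged with a ratio of 0.501. Elsewhere in the 5-Mb window that holds its TSS, gain was listed for 1 of 10 changed regions of H2A.Z and for 4 of 15 of H2A.Zac.

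The 200 bases before the canonical TSS of LIN28B are shown because that gained H2A.Z region covers all of them, and an unchanged H2A.Z region of 411 bp with a ratio of 1.47 covers part of them as well. They come from the RefSeq promoter table (GRCh38.p14) and are chr6:104956907-104957106 on the plus strand. Capitals mark the E-box CACGTG, a site of MYC and USF proteins, and the GATA motif AGATAA, which on the other strand reads TTATCT.
LIN28B promoter: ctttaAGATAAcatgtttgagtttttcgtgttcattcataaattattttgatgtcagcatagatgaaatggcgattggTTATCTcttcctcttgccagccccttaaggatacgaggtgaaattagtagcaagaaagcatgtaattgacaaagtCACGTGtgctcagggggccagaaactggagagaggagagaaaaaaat
The window held 1 E-box and 2 GATA motifs and no GC box, GGGCGG. Searched on both strands, with overlapping matches counted, the E-box was present in 8.34%, the GATA motif in 7.91% and the GC box in 56.3% of 22198 protein-coding promoter windows of RefSeq, which run from 250 bases before to 50 after a TSS. In 14 such windows of 6 of the 9 genes, 2 held an E-box, 1 a GATA motif and 9 a GC box. No window was matched for IGF2BP1, HMGA2 and ARID3A.

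IGF2BP1, IGF2BP2 and IGF2BP3 encode RNA-binding proteins that stabilise mRNAs and are largely fetal in blood. IGF2BP1 (ENSG00000159217, chr17:48997385-49056145, plus strand) had a gained H2A.Zac region of 4998 bp over its TSS with a ratio of 9.90. In intron 2, 2 more H2A.Zac regions were gained with ratios of 9.08 and 12.9, and none was lost. Its 3 gained H2A.Z regions had ratios of 6.44 (1165 bp, 0.63 kb upstream), 4.59 (809 bp, over the TSS) and 4.27 (377 bp, 4.08 kb upstream). An unchanged H2A.Z region of 1032 bp with a ratio of 1.70 also spanned the TSS. The only lost region at this gene was an H2A.Z region of 407 bp, 9.64 kb upstream, with a ratio of 3.42, close to the cutoff. The gained regions near the TSS, 2 of H2A.Z and 1 of H2A.Zac, were also within 1 kb of the TSS of ENSG00000250838.

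IGF2BP2 (ENSG00000073792, chr3:185643130-185825042, minus strand) had 6 gained and 0 lost regions of each mark. Its H2A.Zac regions included the highest ratio of a gained region over the 9 genes, 17.8 (17.77 at BCL11A, 17.85 here), in a region of 1520 bp in intron 2 at chr3:185701521-185703040, 122 kb from the TSS. Of the gained H2A.Zac regions of the whole lists, 90.3% had a lower ratio. A gained H2A.Z region of 1513 bp with a ratio of 5.52 covered 92.0% of it. The same pairing was seen 8.18 kb into the gene, where a gained H2A.Zac region of 3208 bp had a ratio of 13.0 and a gained H2A.Z region of 1333 bp had a ratio of 6.70. The remaining 4 gained H2A.Zac regions had ratios of 5.34 to 8.71, and 1 of them, 1104 bp with a ratio of 7.01, lay over the canonical TSS. At that TSS the H2A.Z region of 1508 bp was unchanged with a ratio of 0.849. The gained H2A.Z regions within 1 kb of any TSS of the gene were narrow, 267 to 459 bp, with ratios of 4.05 to 5.41. Only the one of 267 bp was within 1 kb of the canonical TSS, and the others were near alternative TSSs.

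The promoter of IGF2BP2 differed in base composition from that of LIN28B, with 82.0% G and C against 39.0%. It is shown as chr3:185825043-185825242, minus strand, with GC boxes in capitals (GGGCGG, or CCGCCC on the other strand), from the same RefSeq table. The centre of the intron 2 region is shown because it carried the highest gained ratio. It is chr3:185702181-185702380, minus strand, read from the hg38 genome, and holds none of the 3 motifs.
IGF2BP2 promoter: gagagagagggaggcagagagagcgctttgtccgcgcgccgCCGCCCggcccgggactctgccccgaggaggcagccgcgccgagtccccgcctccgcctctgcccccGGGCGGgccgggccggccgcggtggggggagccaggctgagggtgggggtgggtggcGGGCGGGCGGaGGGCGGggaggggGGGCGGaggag
IGF2BP2 intron 2 region: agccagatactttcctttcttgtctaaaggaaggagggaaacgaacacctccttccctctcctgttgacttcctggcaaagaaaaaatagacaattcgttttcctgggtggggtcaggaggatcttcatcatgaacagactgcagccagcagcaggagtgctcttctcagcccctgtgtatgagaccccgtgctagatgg

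IGF2BP3 (ENSG00000136231, chr7:23310209-23470491, minus strand) had the widest gained region of the 9 genes, an H2A.Zac region of 5122 bp over its TSS with a ratio of 6.94. Its 3 gained H2A.Z regions lay under it, with ratios of 4.01 to 4.53. A further gained H2A.Zac region of 2513 bp with a ratio of 13.9 covered exon 7, 122 kb into the gene and within 1 kb of an alternative TSS, and no H2A.Z region overlapped it. The other gained H2A.Zac regions, with ratios of 3.95, 6.72 and 8.45, were within 1 kb of the TSS of a neighbour, ENSG00000289109 for the first 2 and MALSU1 for the last. No region of either mark was lost. Within the long promoter region, 3 unchanged H2A.Zac stretches of 263 to 519 bp had ratios of 2.59 to 2.62, close under the cutoff. The promoter held 2 E-boxes and no GATA motif or GC box in the 200 bases at chr7:23470492-23470691, minus strand, taken from the RefSeq table with the E-boxes in capitals.
IGF2BP3 promoter: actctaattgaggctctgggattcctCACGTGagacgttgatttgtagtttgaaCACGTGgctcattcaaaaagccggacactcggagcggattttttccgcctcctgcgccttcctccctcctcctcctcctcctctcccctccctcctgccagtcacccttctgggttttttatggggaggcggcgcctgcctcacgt

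HMGA1 and HMGA2 encode small architectural proteins that bind the minor groove of AT-rich DNA. The pair differed in these lists. HMGA1 (ENSG00000137309, chr6:34236873-34246231, plus strand) had a gained H2A.Z region of 2148 bp and a gained H2A.Zac region of 2410 bp over its TSS, with ratios of 5.78 and 7.81, and 88.3% of the second was covered by the first. Both regions were also within 1 kb of the TSS of ENSG00000288879. The highest ratio at HMGA1, 13.5, belonged to a gained H2A.Zac region of 2219 bp over exons 5 and 6, where no H2A.Z region was listed. The other gained H2A.Zac regions lay in intron 2 (ratio 5.43) and downstream near SMIM29 (6.45). The 2 lost H2A.Zac regions lay in the flanks, 9.0 kb upstream of the TSS with a ratio of 6.26 and 13.2 kb downstream of it, near SMIM29, with a ratio of 7.01. HMGA2 (ENSG00000149948, chr12:65824460-65966291, plus strand) had a single region, an unchanged H2A.Z region of 456 bp, 9.59 kb upstream, with a ratio of 0.153. No H2A.Zac region was listed over it, which says only that none passed the filters for reproducible peaks. The HMGA1 promoter is shown as chr6:34236673-34236872, plus strand, from the RefSeq table, with its 5 GC boxes in capitals, of which 2 stand back to back.
HMGA1 promoter: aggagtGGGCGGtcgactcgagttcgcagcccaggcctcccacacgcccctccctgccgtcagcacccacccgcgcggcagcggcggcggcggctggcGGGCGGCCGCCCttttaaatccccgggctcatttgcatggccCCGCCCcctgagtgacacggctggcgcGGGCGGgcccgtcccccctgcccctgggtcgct

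ARID3A (ENSG00000116017, chr19:925781-975939, plus strand), a DNA-binding protein of the ARID family, had the most H2A.Zac regions, 23 in all, of which 8 were gained, 3 lost and 12 unchanged. The gained ones had low to moderate ratios, 3.76 to 8.72, and 3 of them lay within 1 kb of a TSS of ARID3A. The regions that spanned the canonical TSS were unchanged in both marks, with ratios of 0.958 in H2A.Z (1882 bp) and 1.77 in H2A.Zac (718 bp). The largest of the 3 gained ones covered 1539 bp of intron 1 with a ratio of 7.16, and contained a gained H2A.Z region of 403 bp with a ratio of 4.38. The lost H2A.Zac region with a ratio of 41.2, the highest over the 9 genes, lay 7.32 kb upstream at chr19:917836-918719. It was within 1 kb of the TSS of KISS1R, the gene upstream, and contained a lost H2A.Z region with a ratio of 7.46. By ratio it ranked 396 among the 24482 lost H2A.Zac regions of the whole lists. The other 2 lost H2A.Zac regions had ratios of 4.32 and 3.86. Downstream of the gene, 2 H2A.Zac regions were gained with ratios of 4.91 and 4.66 and 1 H2A.Z region with a ratio of 4.26, the last 2 of them near the TSS of WDR18.

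The fetal globin repressors differed in the number of changed regions, 1 of each mark at BCL11A and 3 H2A.Z and 5 H2A.Zac regions at ZBTB7A. BCL11A (ENSG00000119866, chr2:60450520-60554467, minus strand) had unchanged H2A.Z regions at its promoters, with ratios of 0.534 and 0.804, and no H2A.Zac region was listed near them. Its changed regions were 1 gained region of each mark at the same place in intron 2, 36.6 kb from the TSS. The H2A.Zac region spanned 1226 bp at chr2:60515838-60517063 with a ratio of 17.8, above that of 90.2% of all gained H2A.Zac regions. The H2A.Z region spanned 721 bp inside it with a ratio of 5.69. The known erythroid enhancer of BCL11A lies further into the same intron, and no region of either mark was listed there or anywhere further into the gene. The centre of the gained region, chr2:60516351-60516550 on the minus strand of hg38, is shown as the only changed element of this gene and holds none of the 3 motifs.
BCL11A intron 2 region: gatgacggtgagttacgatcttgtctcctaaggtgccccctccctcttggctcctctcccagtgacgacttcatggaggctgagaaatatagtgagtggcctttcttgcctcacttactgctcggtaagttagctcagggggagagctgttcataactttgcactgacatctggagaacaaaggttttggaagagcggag

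ZBTB7A (ENSG00000178951, chr19:4043303-4066899, minus strand) had gained regions at its TSS and lost regions further upstream. Over the TSS and in intron 1, 2 H2A.Zac regions were gained, of 948 bp with a ratio of 7.86 and of 1545 bp with a ratio of 10.9, and 1 H2A.Z region of 410 bp with a ratio of 3.49. This H2A.Z ratio was close to the cutoff, and only 2.62% of the gained H2A.Z regions of the whole lists had a lower one. Upstream, 3 H2A.Zac regions were lost, at distances of 1.27, 5.85 and 7.27 kb from the TSS and with ratios of 5.22, 23.8 and 17.9. Lost H2A.Z regions overlapped the first and the last of them, with ratios of 3.60 and 6.64. Between gain and loss, from 0.143 kb upstream of the TSS, an H2A.Z region of 1340 bp was unchanged with a ratio of 0.830, and the H2A.Zac region over it was unchanged with a ratio of 1.34. None of the lost regions was within 1 kb of the TSS of another gene. Counted in base pairs, ZBTB7A was the only gene of the 9 with more lost than gained. Gained minus lost came to -1371 bp in H2A.Z and -564 bp in H2A.Zac, and with 2 kb to each side in place of 10 kb to 121 and 1883 bp.

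**Figure D3:**
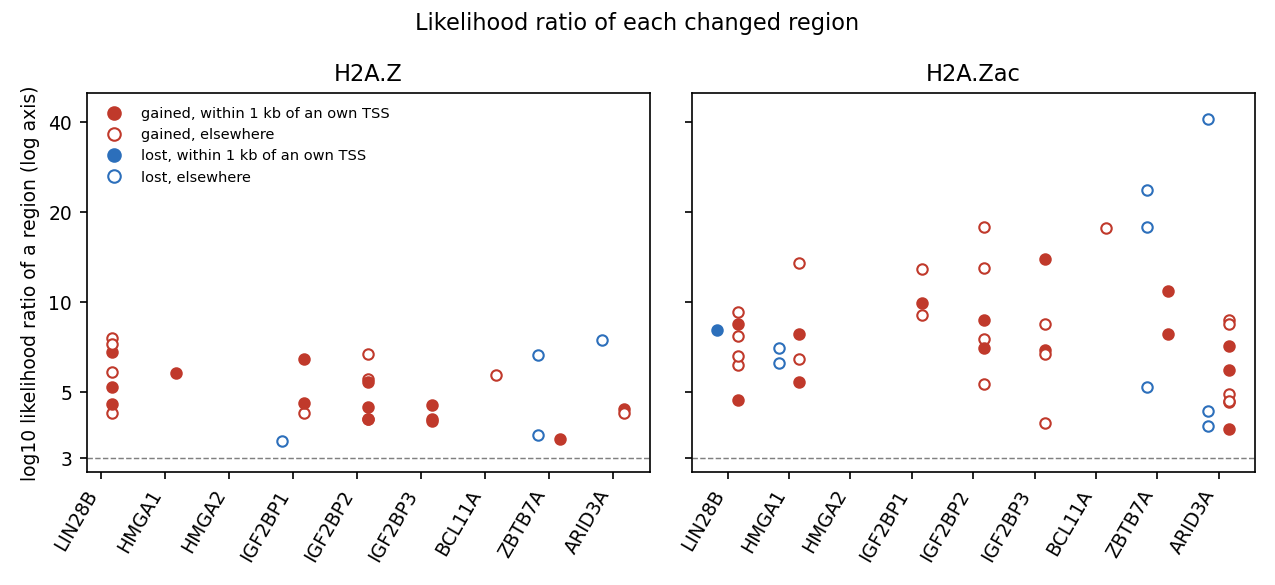
Log10 likelihood ratio (log axis) of each gained and lost region by gene, for H2A.Z (left) and H2A.Zac (right), filled where the region was within 1 kb of a TSS of the gene and open elsewhere, with the cutoff of 3 as a dashed line. All H2A.Z values were at or below 7.58, while H2A.Zac reached 17.8 in gained regions and 41.2 in lost ones.

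High ratios made up a smaller share of the changed regions here than in the whole lists. A ratio of at least 10 was reached by 0 of 28 changed H2A.Z regions of these genes, beside 10.7% in the whole lists, and by 10 of 44 changed H2A.Zac regions, 22.7%, beside 32.5%. Of the 10, 7 were gained and 3 lost, beside 6529 gained and 9504 lost H2A.Zac regions of such ratios in the whole lists. At that cutoff ARID3A turned to more lost than gained H2A.Zac base pairs, with a difference of -884 bp. Median ratios of the gained regions were 4.58 for H2A.Z and 7.69 for H2A.Zac, beside 5.48 and 6.87. The many gained H2A.Z regions of these genes were thus mostly of low ratio, and H2A.Zac held the high ones.

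Where changed regions of both marks overlapped, they had changed in the same direction, and other changed regions lay on unchanged regions of the other mark or on none. Of 28 changed H2A.Z regions 21 were covered, over at least 25% of their bases, by H2A.Zac changed the same way and 0 by H2A.Zac changed the opposite way, and in the whole lists these counts were 14203 and 16 of 21557. Of 44 changed H2A.Zac regions 18 were covered in this way by H2A.Z regions changed the same way and 0 by the opposite, beside 11657 and 13 of 49326. The relation was uneven between the marks. H2A.Zac regions covered 59 of the 64 H2A.Z regions (92.2%, beside 82.8% in the whole lists), whereas H2A.Z regions covered 50 of the 85 H2A.Zac regions (58.8%, beside 60.5%). Gained H2A.Zac without a listed H2A.Z region was seen in the HMGA1 exons, at exon 7 of IGF2BP3, in intron 2 of IGF2BP1 and inside ARID3A, among other places. The libraries of both marks came from the same 2 lines, so the marks are not independent of each other.

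The regions were also set beside their surroundings, since a difference in copy number between the clones would act over long stretches. In the rest of the 5-Mb window that holds the TSS of each gene, the gained share of changed H2A.Z regions ranged from 10% at LIN28B to 61.4% at IGF2BP3, and that of H2A.Zac from 26.7% at LIN28B to 60.2% at HMGA1. Changed H2A.Z regions of chromosome 19, which holds ZBTB7A and ARID3A, were gained in 15.6% of cases, the lowest share of the chromosomes with these genes. At ARID3A gain was listed for 2 of 3 changed regions of H2A.Z and 8 of 11 of H2A.Zac, beside 35 of 166 and 158 of 395 in the rest of its window. At ZBTB7A the same counts were 1 of 3 and 2 of 5, beside 36 of 166 and 164 of 401. The input libraries were not analysed here, and a part of copy number in these results was not tested.

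**Figure D4:**
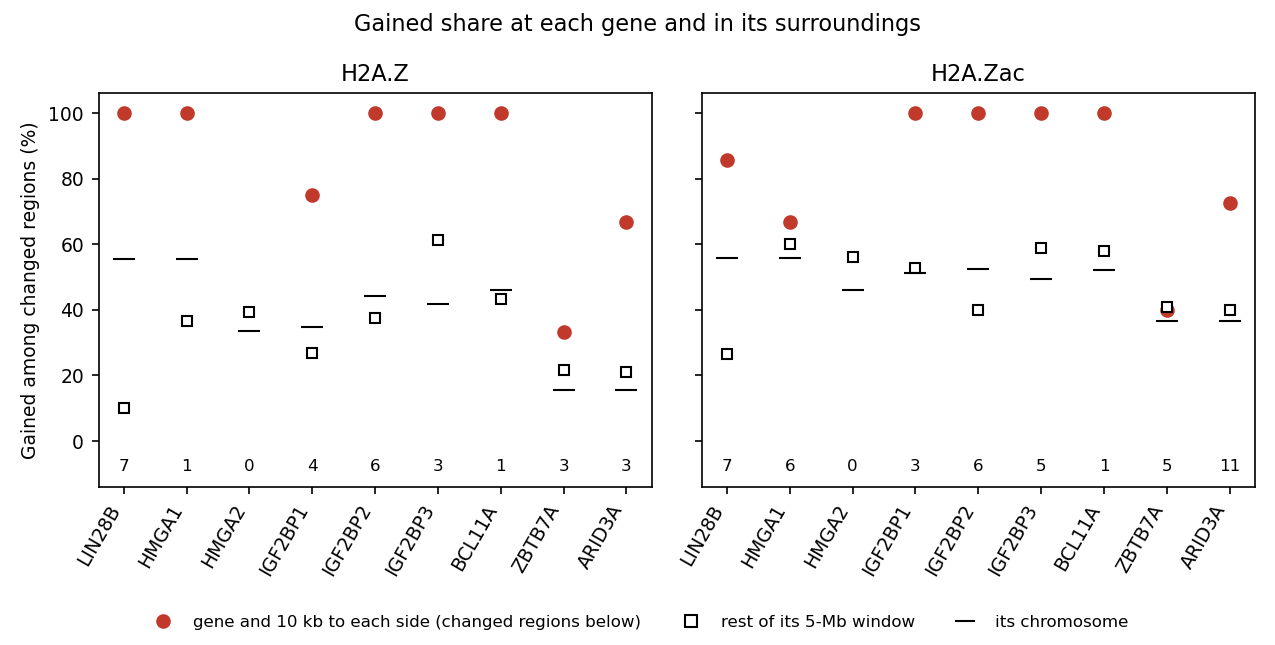
Gained share of changed regions (%) at each gene and 10 kb to each side (filled circles, with the number of changed regions below), in the rest of its 5-Mb window (open squares) and on its chromosome (dashes), for H2A.Z (left) and H2A.Zac (right). The circles lie above the squares except for H2A.Zac at ZBTB7A, with 2 of 5 regions gained beside 40.9%, and HMGA2 has no circle.

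Base composition varied with the class of the regions. The median GC content over these genes was 46.5% in gained and 61.4% in unchanged H2A.Z regions, beside 47.1 and 52.2% in the whole lists. For H2A.Zac the medians were 51.1 and 56.0%, beside 48.6 and 50.5%. The few lost regions, 4 of H2A.Z and 9 of H2A.Zac, had medians of 52.9 and 54.4%, beside 50.5 and 49.6%. In the central 300 bp of the gained regions, the GATA motif was present in 1 of 24 for H2A.Z and 6 of 35 for H2A.Zac, beside 18.7 and 16.7% of all gained regions. The E-box was present in 1 and 2 of them, beside 3.75 and 3.22%, and the GC box in 10 and 11 of them (41.7 and 31.4%), beside 20.7 and 24.0%. In unchanged regions of these genes the GC box was present in 16 of 36 for H2A.Z and 11 of 41 for H2A.Zac. These shares were 44.4 and 26.8%, beside 31.2 and 24.8% of all unchanged regions.

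Genes around LIN28B and let-7 were described from a list of 19, made of let-7 host genes, enzymes of microRNA maturation and further let-7 targets. Near a TSS (within 1 kb), H2A.Zac was gained at 9 and lost at 2 of the 19, beside 41.4 and 22.3% of protein-coding genes, and 13 had any listed H2A.Zac region there. A gained H2A.Z region was found there at 2 and a lost one at 0, beside 16.2 and 9.31%. Over the whole loci 16 had a changed region and 3 had none, and 78.5% of protein-coding loci had one. By direction, H2A.Zac was gained at 12 and lost at 10 of the 19 loci, beside 59.4 and 49.8%, and H2A.Z was gained at 5 and lost at 2, beside 26.6 and 27.3%. The highest ratio within 1 kb of a TSS was that of CCND2, a cyclin and let-7 target, which had 4 gained H2A.Zac regions there, up to 13.0, and unchanged H2A.Z regions only. The host gene MIRLET7A1HG, chosen here after its values were seen, had a gained H2A.Z region (ratio 4.04) and a gained H2A.Zac region (7.06) near its TSSs. The mature microRNAs of this cluster on chromosome 9 are shown from RefSeq (GRCh38.p14) to make visible the seed, bases 2 to 8 in capitals, that they share and through which the let-7 targets above are recognised.
let-7a-5p: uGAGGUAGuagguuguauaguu
let-7f-5p: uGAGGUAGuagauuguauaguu
let-7d-5p: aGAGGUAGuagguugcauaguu

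The second list held 35 genes of fetal globin silencing. It included transcription factors of the pathway, subunits of the corepressors that BCL11A and ZBTB7A recruit, and further genes such as EIF2AK1 and SPOP. All 35 had a changed region over the locus, beside the same 78.5%. By direction, H2A.Zac was gained at 33 and lost at 28 of these loci, beside 59.4 and 49.8% of protein-coding loci. H2A.Z was gained at 14 and lost at 13 of them, beside 26.6 and 27.3%. Within 1 kb of a TSS, 32 had a gained and 9 a lost H2A.Zac region, beside the same 41.4 and 22.3%, with 34 having any listed there, and 8 had a gained and 2 a lost H2A.Z region, beside 16.2 and 9.31%. A ratio of at least 10 within 1 kb of a TSS was reached at 13 of them, beside 15.4% of protein-coding genes. The values of these 13 genes are those within 1 kb of a TSS, unless the whole locus is named. In the NuRD corepressor, gained H2A.Zac regions reached 18.5 at GATAD2A, 16.1 at RBBP7 and 13.3 at MTA3, and MTA3 also had gained H2A.Z regions up to 7.60. Over whole loci, the highest ratio of the NuRD genes of the list was that of a lost H2A.Zac region, 28.6 at GATAD2B, a gene named here after its values were seen. RCOR1, the scaffold of the CoREST complex, reached 16.3, and EHMT2, a histone H3 lysine methyltransferase, 12.0, with a lost H2A.Zac region of 13.4 further away in its locus. The heme-regulated kinase gene EIF2AK1 reached 11.3, ATF4 downstream of it 10.02 and the heme-binding repressor gene BACH1 13.8, and EIF2AK1 had a lost H2A.Zac region of 13.7 further away.
Near a TSS, lost H2A.Zac regions had the higher ratio at 4 of the 13, and over the whole loci at 7, with EHMT2, EIF2AK1 and NFIA added. Of the 3080 protein-coding genes that reached a ratio of 10 near a TSS, this was so at 50.8 and 56.6%. The 4 were NFIX (17.3, with lost H2A.Z up to 6.68), the nuclear receptor gene NR2C1 (13.0), SOX6 (10.97), whose product acts with BCL11A, and the DNA methyltransferase gene DNMT1 (10.7). DNMT1 also had a lost and a gained H2A.Z region near a TSS, with ratios of 4.03 and 5.28. NFIX, NR2C1 and SOX6 also had gained H2A.Zac regions near a TSS, with ratios of 6.44, 3.85 and 6.86. NFIA, related to NFIX, had gained regions of 12.1 for H2A.Zac and 8.13 for H2A.Z and a lost H2A.Zac region of 5.95 near a TSS, and over its whole locus 16 gained H2A.Zac regions up to 13.2 and 19 lost ones up to 22.96.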

How the data were processed

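The authors aligned reads to hg38, merged the 2 replicates per mark and line, compared WT with ΔTRRAP by MACS2 bdgdiff with the effective depths given by MACS2, and kept regions with at least 25% of their length in peaks reproducible at an IDR of 0.05. Bowtie2 2.4.5, MACS2 2.2.7.1, bedtools 2.30.0 and deepTools 3.5.1 are named in the submitters' processing notes. The 6 deposited lists hold coordinates and a score, the authors' log10 likelihood ratio, a value of their own comparison that was used to describe regions and not tested. They hold no counts or values per replicate, so depth and precision are unknown here.

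Gene models were those of GENCODE 44, whereas the study named release 32. Regions overlapping a gene or 10 kb to each side were assigned to it. Regions of different classes of 1 mark can overlap, and adjacent regions were counted separately. A region was near a TSS within 1 kb of any annotated TSS of the gene. Distances run from the canonical TSS to the nearest edge. Of the related lists, genes with a changed region near a TSS and a ratio of at least 10 were named. The members and lists were chosen with earlier results of these data known. Python 3.11.15, pandas 2.3.3, pysam 0.24.0 and bedtools 2.31.1 were used, and the overlaps were tested on simulated intervals. The alternatives were flanks of 2 and 50 kb, ratio cutoffs of 5 and 10, regions of at least 500 bp, regions merged within 1 kb, base pairs, other TSS definitions and coverage limits, and leaving out the gene with most changed regions. Inputs, expression and signal tracks were not analysed here.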

Additional observations from a re-analysis of the deposited data

How the results depend on the processing

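No paired analysis was possible because the lists hold merged replicates and no value for a single library, and replicates could not be left out for the same reason. Of 171 values under alternatives, 122 kept their direction and stayed within 1.5 times the reported count or within its interval, and 49 did not. The values kept include the base pair differences of HMGA2. With no changed region these were 0 under every setting and had no direction to keep. With a flank of 2 kb the gained share of changed regions was 95.7% for H2A.Z and 90.9% for H2A.Zac, and with a flank of 50 kb it was 62.8% in H2A.Z and 68% in H2A.Zac. That flank of 50 kb raised the number of regions to 108 for H2A.Z and 140 for H2A.Zac. Merging within 1 kb left 40 and 54 regions, and a minimum width of 500 bp left 31 H2A.Z regions. The ratio cutoffs were applied to gained and lost regions only, and all unchanged regions were kept. With a cutoff of 10 for changed regions, 36 H2A.Z and 51 H2A.Zac regions were left in this way. No changed H2A.Z region was among them, so that 0 genes had one and no gained share could be given for that mark. The genes with a changed H2A.Z region near a TSS fell from 7 to 4 at a ratio of at least 5, to 4 at a width of at least 500 bp and to 0 at a ratio of at least 10. For H2A.Zac they fell to 2 at a ratio of at least 10. Asking for 50% coverage gave 45.9% of H2A.Zac regions on H2A.Z and 9 changed ones on H2A.Z changed the same way. A ratio of at least 10 left 6 genes of the let-7 list and 21 of the globin list with changed regions. Gained minus lost base pairs turned for ZBTB7A with a flank of 2 kb, to 121 bp in H2A.Z and 1883 bp in H2A.Zac. For ARID3A they turned to -315 bp in H2A.Z at a ratio of at least 5 and to -884 bp in H2A.Zac at a ratio of at least 10. These settings counted other or fewer regions. The flank of 2 kb left out the lost H2A.Zac regions of ZBTB7A further upstream, with ratios of 23.8 and 17.9. At ARID3A the cutoff of 10 kept the lost H2A.Zac region of 41.2, while the gained ones reached 8.72 at most.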

Other observations

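TRIM71, a let-7 target and developmental RNA-binding ubiquitin ligase, stood out in the let-7 list and was chosen after its values were seen. It had 4 gained H2A.Zac regions over its locus, with a ratio of up to 57.2, and a gained H2A.Z region with a ratio of 11.2, and none of them lay within 1 kb of a TSS. LIN28A, the paralog of LIN28B, had a lost H2A.Zac region with a ratio of 10.997 and a gained H2A.Z region with a ratio of 5.91. MYB, a regulator of progenitors and fetal globin, had gained regions of up to 16.7 in H2A.Zac and 13.6 in H2A.Z, and a lost H2A.Zac region with a ratio of 5.38. These 2 genes, too, were picked after their values were seen. MIR99AHG, the host gene of let-7c, MYCN and IGF2 had no listed region of either mark.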
